A study of Mus musculus with 10 samples.

Results

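The 32 genes described here are transcripts of the B lymphocyte lineage, chosen as a list from 52636 gene identifiers counted in the inguinal fat pad of the mouse, a white subcutaneous depot. They were sorted by role into 8 genes of naive or follicular B cells, 14 surface and signalling genes shared by most B cells, 3 transcription factors, 4 immunoglobulin light chain constant regions, 1 receptor associated with memory and marginal zone B cells, and 2 plasma cell genes. The list was compared between mice lacking Tcf7l2 in fat and their controls, both with all libraries and without the first knockout library, in which lymphocyte transcripts were abundant. All 32 were highest in that library.

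B cells recognise antigen through a membrane immunoglobulin, built from heavy and light chains, that signals through the partner proteins encoded by Cd79a and Cd79b. A naive B cell carries heavy chains of the mu and delta classes (Ighm and Ighd) together with the receptors for complement, for the survival factor BAFF and for low-affinity IgE. On activation some cells switch class or become memory cells, and others become plasma cells, which lose much of the naive programme, including the transcription factor Pax5, and secrete antibody with the help of the joining chain Jchain and the chaperone Mzb1. Adipose tissue holds resident B cells in its stroma and in small lymphoid clusters, and the inguinal depot also surrounds a lymph node.

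Total RNA was sequenced from C57BL/6 mice aged 6 months that ate a 65% high-fat diet. Controls (5 libraries) had floxed alleles of Tcf7l2 (F/F) without Cre, although the genotype label calls them wild type. Knockouts (5 libraries) had the same floxed alleles and the Adp-Cre transgene, and are labelled as an adipose knockout. The labels do not spell out the promoter, and the whole depot was sequenced, not sorted cells. They give the diet as 16 weeks in one field, 12 weeks in another and 4 months in the treatment protocol, and they do not say in words that each library was a separate mouse. If they were not, the p-values reflect only the spread among these samples, which may be technical. The title of each library also carries a number of its own, different for every library and not ordered by genotype. What that number stands for is not stated in the labels. The facility numbers run through the controls and then through the knockouts, so genotype and handling in that order cannot be told apart.

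The libraries held 14032866 to 17782073 counts, with 25826 to 29461 genes detected in each. A floor of 3 counts equals 0.172 to 0.205 CPM (counts scaled to a common library size by TMM factors) and covers counting error only. Tcf7l2 (chr19:55741820-55933654, GRCm38) stood at 10.7 ± 0.909 CPM in controls and 5.83 ± 0.311 CPM in knockouts (SD, n = 5 each). All 5 knockouts lay below all 5 controls, and the gene fell by 0.87 on the log2 scale (SE 0.096, edgeR quasi-likelihood test, adjusted p = 0.000615). The adipocyte transcript Adipoq lay between 2690 and 3390 CPM in controls and between 2300 and 3380 CPM in knockouts, while the keratinocyte genes Krt5 and Krt14 had at most 2 counts in any library.

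With all 10 libraries, 13 of the 32 B lineage genes were higher in the knockouts, 0 were lower, 17 did not pass the test and 2 (Vpreb3 and Mzb1) had too few counts to be tested. Here and below, higher and lower mean an adjusted p below 0.05 in the quasi-likelihood test of edgeR over all 15927 tested genes. In the same fit 5.84% of all tested genes were higher and 7.05% were lower. The median log2 fold change of the 30 tested members was 2.41, beside 0.00 for all tested genes, and 30 of 30 were positive. The 13 called genes had log2 fold changes of 2.14 to 3.56 and adjusted p-values of 0.0344 to 0.0496, close under the threshold. In bulk tissue, more B cells and more B cell RNA per cell cannot be told apart.

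Without knockout 1, 4 members were higher (Ms4a1, Treml2, Cd79b and Ighd), 0 were lower and 26 did not pass, in a fit where 6.97% of 16104 genes were higher and 7.15% were lower. The median log2 fold change of the same 30 genes was 0.89, beside -0.01 for all genes, and 26 of 30 were positive. At an unadjusted edgeR p below 0.05 there were 23 of 30 members with all libraries, beside 31% of all tested genes, and 17 without knockout 1, beside 32.5%. No member had all 5 knockouts above all 5 controls, an order that 4.55% of all tested genes showed. None had knockouts 2 to 5 above all controls either, beside 6.95% of all genes.

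**Figure D1:**
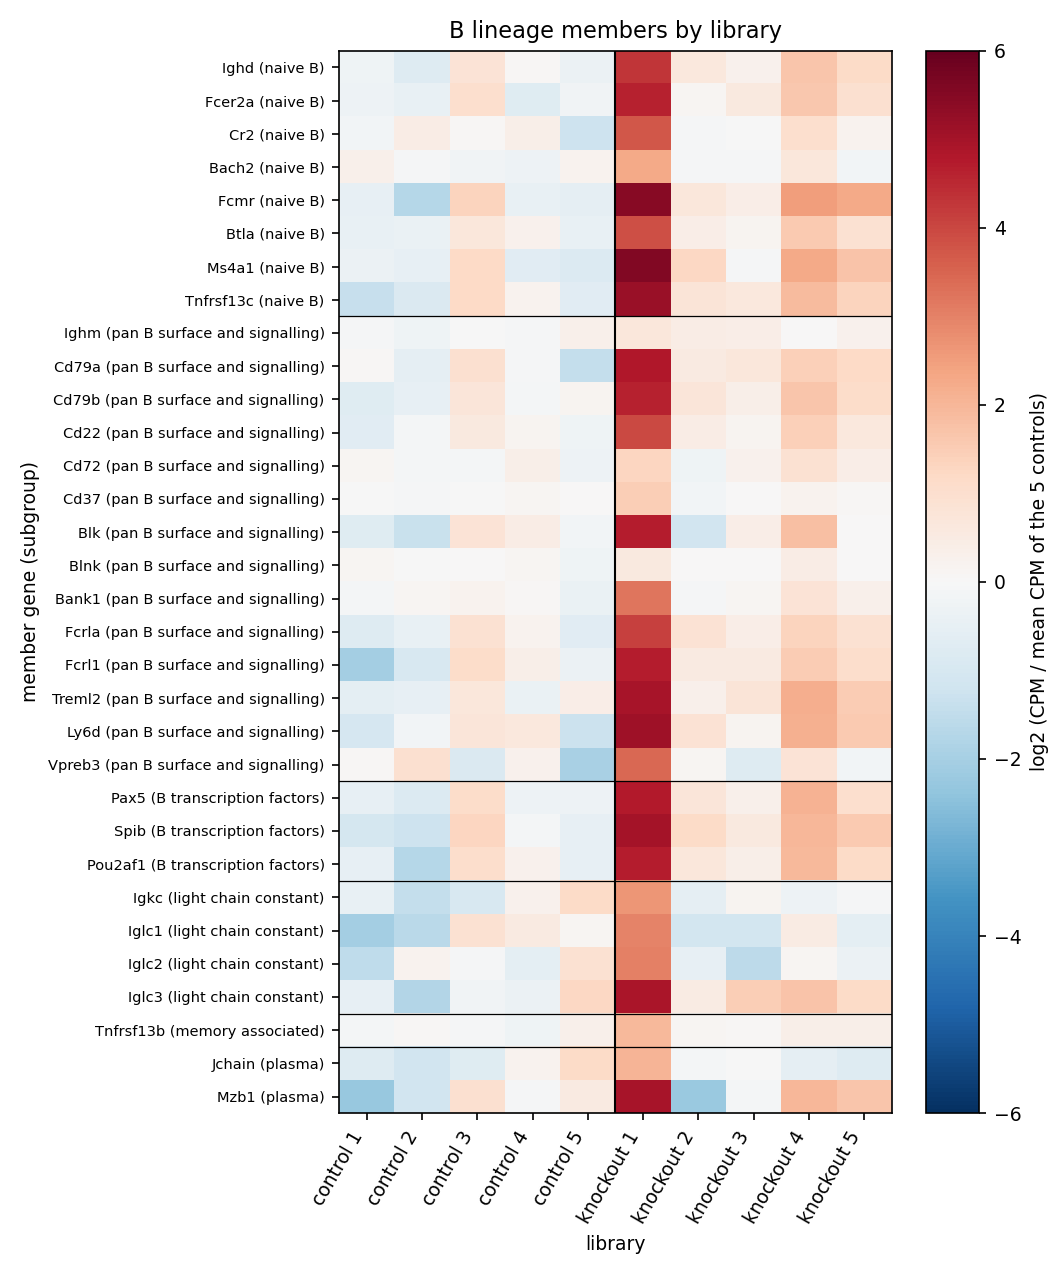
Level of the 32 B lineage genes in each of the 10 libraries, as log2 of CPM over the mean of the 5 controls, with rows grouped by role and columns for control 1 to 5 and knockout 1 to 5. Knockout 1 is the highest library in all 32 rows, by a factor over the median of the other 9 libraries that runs from 1.47 to 49.4.

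Knockout 1 lay far above the other libraries for most members. Its ratio to the median of the other 9 libraries had a median of 15.2 over the 32 genes. It was above 2 for 30 genes, above 5 for 27, above 10 for 23 and above 20 for 12. The largest ratio was 49.4, for Ms4a1, and the smallest was 1.47, for Blnk, an adaptor of the B cell receptor that myeloid cells also express. Among the remaining knockouts, knockout 4 was the highest for 28 of 32 members. Control 3 was the highest control for 20 members and control 5 for 6. For 19 of 32 genes, all of knockouts 2 to 5 lay above the control median.

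The naive B cell genes included the member with the largest log2 fold change, but their median was not the highest of the subgroups. Of 8 tested, 5 were higher (Ighd, Fcmr, Btla, Ms4a1 and Tnfrsf13c), with a median log2 fold change of 2.60, and 2 of them (Ms4a1 and Ighd) were also higher without knockout 1, where the median was 0.98. Their levels summed to 17.4, 17.1, 31.2, 20.3 and 14.6 CPM in the controls, in the order of their numbers, and to 395, 27.1, 22.3, 59.1 and 38.9 CPM in the knockouts. Knockouts 2 and 3 lay inside the control range, and knockouts 1, 4 and 5 lay above it.

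Ms4a1 (chr19:11249675-11266241) encodes CD20, a membrane protein of B cells from the precursor stage until plasma cell differentiation. Ms4a1 was sorted with the naive B cell genes but is not particular to naive cells, so its values do not set them apart from other B cells. Its levels were 1.61, 1.46, 4.79, 1.28 and 1.17 CPM in the controls and 97.8, 4.86, 1.98, 9.96 and 6.85 CPM in the knockouts. Knockout 3 lay between control 1 and control 3, so the groups overlapped, while the other 4 knockouts exceeded every control. Its log2 fold change was 3.56 (SE 0.98, edgeR adjusted p = 0.0352), and 1.52 without knockout 1 (SE 0.46, edgeR adjusted p = 0.0453).

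Ighd (chr12:113406604-113416324) encodes the delta heavy chain, which mature naive cells display as IgD. It stood at 3.33, 2.29, 6.95, 4.19 and 3.11 CPM in the controls and 78.8, 6.20, 4.82, 12.7 and 8.76 CPM in the knockouts. Control 3 lay above knockouts 2 and 3, and the other controls lay below every knockout. Its log2 fold change was 2.49 (SE 0.73, edgeR adjusted p = 0.0422), and without knockout 1 it was 1.04 (SE 0.32, edgeR adjusted p = 0.046).

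Fcmr, the Fc receptor for IgM, ran from 0.255 to 2.15 CPM in controls and stood at 36.9, 1.34, 1.12, 4.78 and 4.11 CPM in knockout 1 to 5. Knockouts 2 and 3 lay below control 3, its highest control. With all libraries the log2 fold change was 3.52 (SE 0.96, edgeR adjusted p = 0.0344). Without knockout 1 it was 1.74, the largest among the members, at an edgeR adjusted p of 0.051.

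Tnfrsf13c encodes the BAFF receptor, which carries the survival signal of naive cells. Controls lay at 0.179 to 1.05 CPM and knockouts at 0.726 to 16.7 CPM, with a log2 fold change of 3.19 (edgeR adjusted p = 0.0454) that was 1.25 without knockout 1 (edgeR adjusted p = 0.0823). Btla, an inhibitory receptor of B and T cells, lay at 3.15 to 6.82 CPM in the controls and at 4.75 to 62.8 CPM in the knockouts, with a log2 fold change of 2.14 (edgeR adjusted p = 0.0496) that was 0.87 without knockout 1 (edgeR adjusted p = 0.0683).

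The remaining 3 naive genes did not pass with all libraries. Fcer2a, the low-affinity IgE receptor CD23 of follicular cells, had a log2 fold change of 2.70 at an edgeR adjusted p of 0.0519. Cr2, the complement receptor CD21, stood at 3.75, 5.79, 4.36, 5.34 and 1.76 CPM in controls and 56.4, 3.95, 4.16, 8.56 and 4.86 CPM in knockouts. Its knockouts 2, 3 and 5 lay within the control range, and its log2 fold change went from 1.91 to 0.37 without knockout 1 (edgeR adjusted p = 0.0947 and 0.428). Bach2, a repressor that holds back plasma cell differentiation and is also expressed in T cells, had log2 fold changes of 0.89 with all libraries and 0.13 without knockout 1 (edgeR adjusted p = 0.186 and 0.69). Pairs of values below are log2 fold changes in that order.

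**Figure D2:**
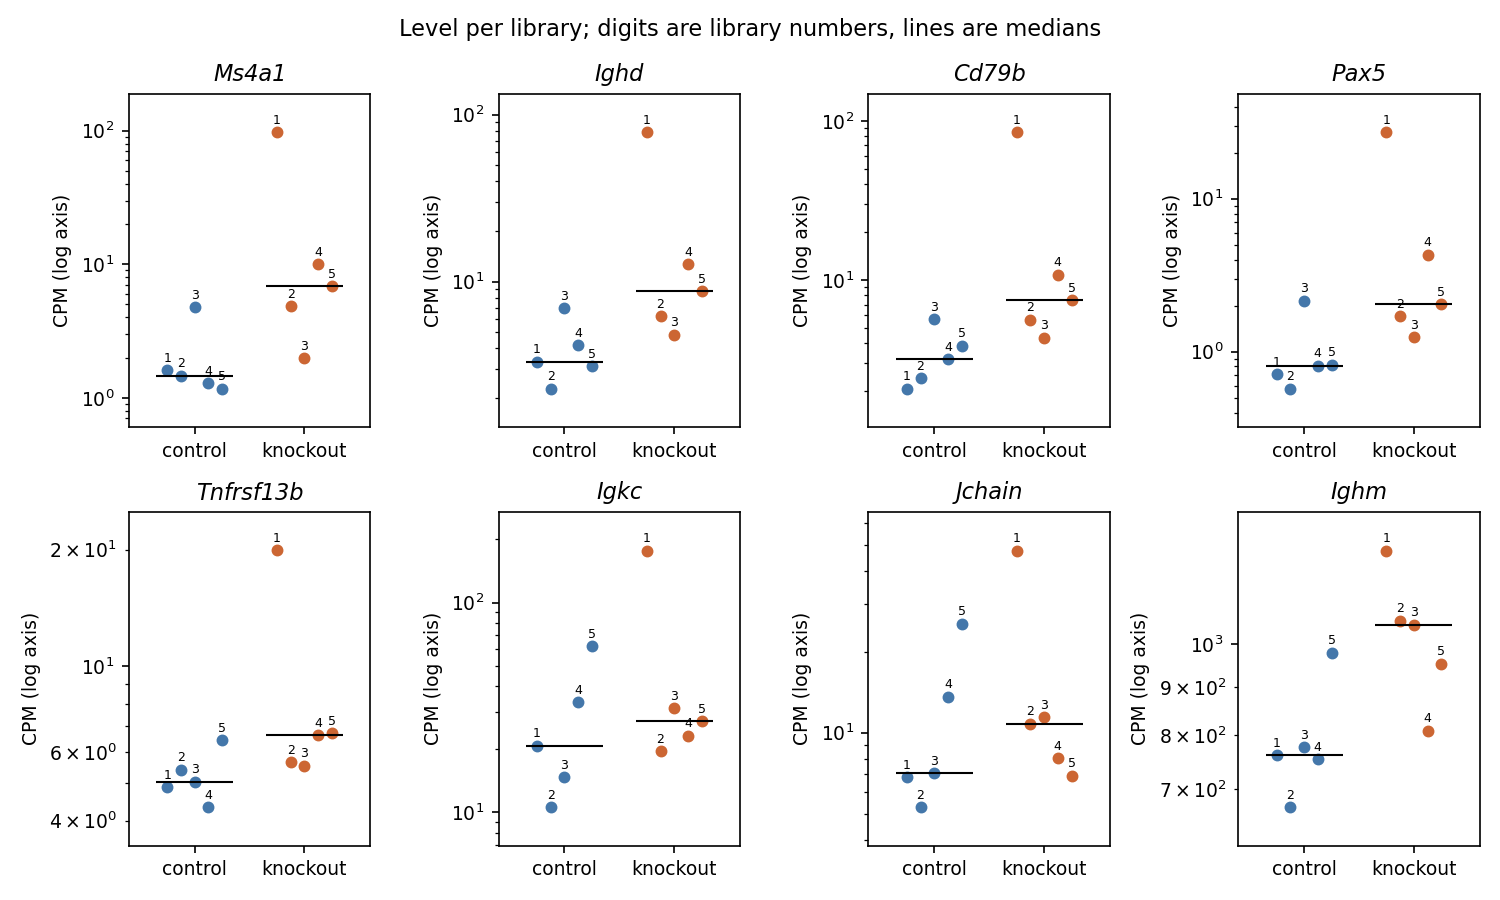
CPM on a log axis for 8 members in each library, with numbered points for control and knockout libraries and lines at the group medians; Ms4a1, Ighd, Cd79b and Pax5 are B cell genes, Tnfrsf13b is the memory-associated gene, and Igkc, Jchain and Ighm encode parts of antibodies. Knockout 1 is the highest point in every panel, and control 5 is the highest control for Tnfrsf13b, Igkc, Jchain and Ighm, at 25.4 CPM for Jchain.

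Among the surface and signalling genes shared by most B cells, 13 of 14 were tested and 4 were higher: Cd79a, Cd79b, Treml2 and Ly6d. The median log2 fold change was 2.32, and 0.76 without knockout 1, when Cd79b and Treml2 were still higher. Cd79b (chr11:106311341-106314762), a signalling subunit of the B cell receptor, stood at 2.08, 2.42, 5.66, 3.18 and 3.87 CPM in controls and 85.0, 5.65, 4.35, 10.8 and 7.46 CPM in knockouts. Control 3 lay above knockouts 2 and 3, and all knockouts lay above the other 4 controls. Its log2 fold change was 2.72 (SE 0.79, edgeR adjusted p = 0.0414), and 1.04 without knockout 1 (SE 0.30, edgeR adjusted p = 0.0372).

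Cd79a, the other signalling subunit, stood at 1.19, 0.764, 2.15, 1.08 and 0.41 CPM in controls and 31.3, 1.64, 1.78, 3.05 and 2.53 CPM in knockouts. It had a log2 fold change of 2.85 (edgeR adjusted p = 0.047) and 1.01 without knockout 1 (edgeR adjusted p = 0.0791). Treml2, a receptor of the TREM family found on B cells and myeloid cells, ran from 0.357 to 0.861 CPM in controls and stood at 16.7, 0.669, 0.923, 2.46 and 1.57 CPM in knockouts. Only knockout 2 lay inside its control range. Treml2 had a log2 fold change of 3.04 (SE 0.86, edgeR adjusted p = 0.0388), and 1.35 without knockout 1 (SE 0.41, edgeR adjusted p = 0.0451). Ly6d, a surface marker of B lineage commitment, had a log2 fold change of 3.16 (edgeR adjusted p = 0.0394) and of 1.38 without knockout 1 (edgeR adjusted p = 0.0574).

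The other surface and signalling genes did not pass. Fcrla and Fcrl1, Fc receptor-like proteins of B cells, had log2 fold changes of 2.32 and 2.79 (edgeR adjusted p = 0.0509 and 0.0567), and 0.91 and 0.97 without knockout 1 (edgeR adjusted p = 0.0811 and 0.159). Cd22, an inhibitory lectin of the B cell surface, had values of 2.18 and 0.76 (edgeR adjusted p = 0.0555 and 0.0819). Blk, a Src family kinase, had values of 2.71 and 0.65 (edgeR adjusted p = 0.0796 and 0.415). Bank1, a scaffold of receptor signalling, had values of 1.54 and 0.34 (edgeR adjusted p = 0.0935 and 0.205).

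Cd37, Cd72 and Blnk, which other leukocytes express as well, had smaller values. Cd37, a tetraspanin of leukocytes, ran from 13.0 to 14.5 CPM in the controls and stood at 37.6, 12.3, 13.7, 15.8 and 14.2 CPM in knockout 1 to 5. Knockout 1 alone lay far from the other libraries. Its log2 fold change was 0.47 with all libraries and 0.05 without knockout 1 (edgeR adjusted p = 0.241 and 0.708). For Cd72, an inhibitory receptor that binds CD100, the values were 0.62 and 0.38 (edgeR adjusted p = 0.108 and 0.205), and another gene covers 41.6% of its exonic bases. Those of Blnk were 0.24 and 0.15 (edgeR adjusted p = 0.205 and 0.363). Vpreb3, a chaperone-like protein of immunoglobulin assembly, had 4, 7, 2, 4 and 1 counts in the controls and 43, 4, 2, 6 and 3 counts in the knockouts, so only control 1, control 2, control 4 and knockouts 1, 2, 4 and 5 were at or above the floor.

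Pax5, Spib and Pou2af1, the transcription factors on the list, were all higher with all libraries and did not pass without knockout 1. Their median log2 fold change was 2.86, and 1.19 without knockout 1, beside 2.60 and 0.98 for the naive B cell genes. Pax5, the factor that commits cells to the B lineage, stood at 0.714, 0.573, 2.15, 0.811 and 0.821 CPM in controls and 27.3, 1.70, 1.25, 4.31 and 2.05 CPM in knockouts. Control 3 lay above knockouts 2, 3 and 5, and the other 4 controls lay below every knockout. Pax5 had a log2 fold change of 2.86 (SE 0.84, edgeR adjusted p = 0.0435), and 1.19 without knockout 1 (SE 0.42, edgeR adjusted p = 0.0739). Spib, an Ets family factor of B cells and plasmacytoid dendritic cells, had values of 3.08 and 1.40 (edgeR adjusted p = 0.0391 and 0.056), and Pou2af1 had values of 2.81 and 1.16 (edgeR adjusted p = 0.0471 and 0.0943).

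Pou2af1 encodes a coactivator that binds octamer factors on the motif ATGCAAAT, and the members were searched for that motif. RefSeq promoters on GRCm38.p6 were matched for 20 of the 32 members. The motif was searched on both strands, as ATGCAAAT or its reverse complement ATTTGCAT, in the 250 bases before each transcript start. It was present for Blnk and Vpreb3, 2 of the 20, and in 1.6% of all 32851 promoters (526). The 30 bases around each match are shown with the motif in capitals, from 5′ to 3′ along the gene.
Blnk: tactggaagggATTTGCATgcccaataagg
Vpreb3: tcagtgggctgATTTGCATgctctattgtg
The Blnk stretch lies at chr19:40994333-40994362 on the minus strand, with the motif beginning 130 bases before the start, and the Vpreb3 stretch at chr10:75948244-75948273 on the plus strand, beginning 45 bases before it. Both carry the motif in the same orientation. Blnk had the smallest fold change of the tested members and Vpreb3 could not be tested.

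**Figure D3:**
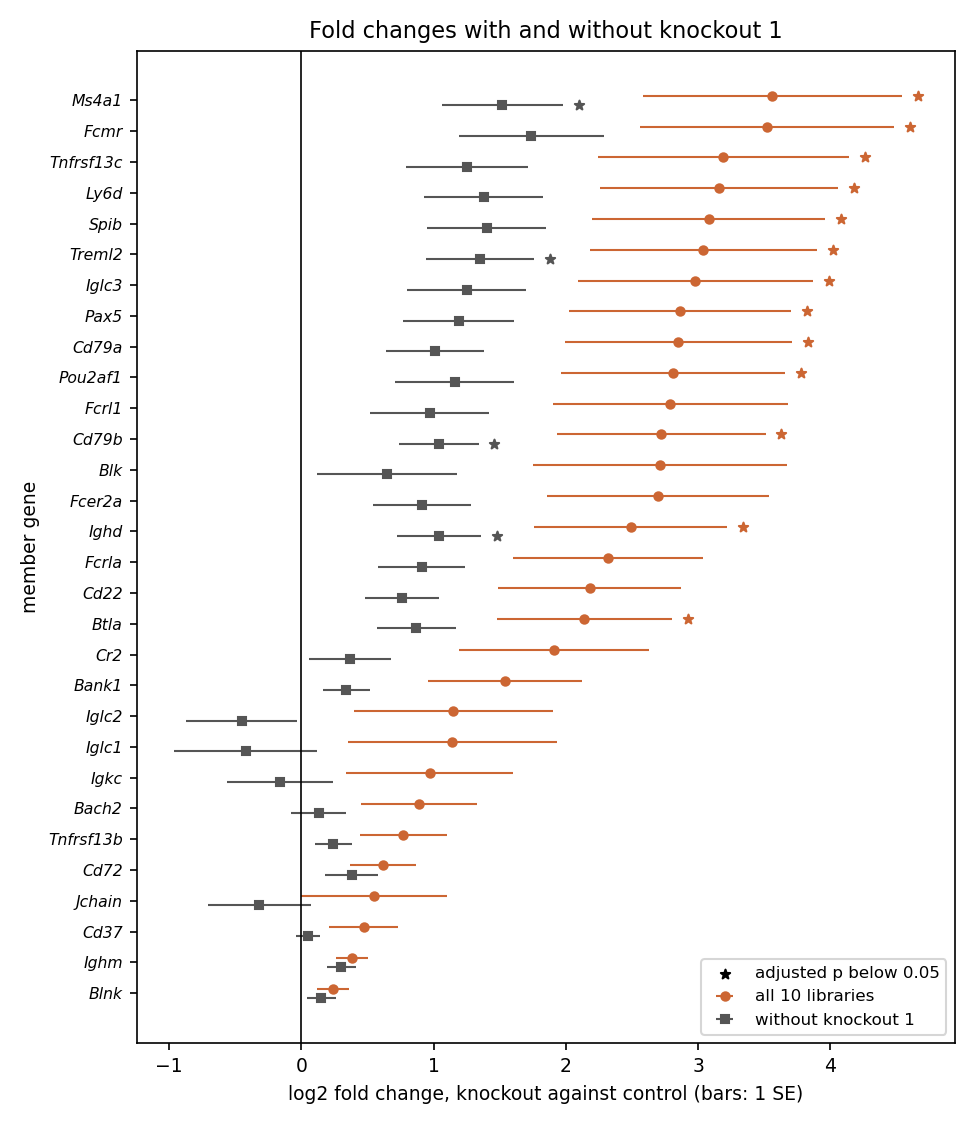
Log2 fold change, knockout over control, of the 30 tested members with all 10 libraries and without knockout 1, with the standard error as bars and a star where the edgeR adjusted p is below 0.05. There are 13 stars with all libraries and 4 without knockout 1, and Igkc, Iglc1, Iglc2 and Jchain lie below 0 without it.

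Of the 4 light chain constant regions 1 was higher, and their median log2 fold change was 1.14 with all libraries and -0.29 without knockout 1. Igkc (chr6:70726435-70726966), the kappa constant region, stood at 20.8, 10.6, 14.7, 33.5 and 62.2 CPM in controls and 177, 19.6, 31.3, 23.2 and 27.2 CPM in knockouts. Control 5 exceeded knockouts 2 to 5, which all lay inside the control range. The log2 fold change was 0.97 (SE 0.63, edgeR adjusted p = 0.317) and -0.16 without knockout 1 (SE 0.40, edgeR adjusted p = 0.807).

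The lambda constant regions are encoded by related neighbours on chromosome 16, of which Iglc2 and Iglc3 are near-identical, so counts may have been split or discarded between them, and the differences between Iglc1, Iglc2 and Iglc3 are uncertain. The first 150 coding bases of each are shown to make this visible, from GENCODE M21 transcripts, with capitals where a base differs from Iglc2.
Iglc1: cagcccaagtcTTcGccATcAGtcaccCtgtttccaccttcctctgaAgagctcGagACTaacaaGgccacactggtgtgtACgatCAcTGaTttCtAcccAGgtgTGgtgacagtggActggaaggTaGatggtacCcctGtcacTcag
Iglc2: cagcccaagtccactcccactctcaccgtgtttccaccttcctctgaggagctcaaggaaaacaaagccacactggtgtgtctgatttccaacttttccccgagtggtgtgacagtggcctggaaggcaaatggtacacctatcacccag
Iglc3: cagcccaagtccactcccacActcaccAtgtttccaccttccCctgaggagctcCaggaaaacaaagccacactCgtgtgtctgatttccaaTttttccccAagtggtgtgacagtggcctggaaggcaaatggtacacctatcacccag
Iglc1 differs from Iglc2 at 33 of these bases and Iglc3 at 7. Over the whole coding stretch of 312 bases Iglc2 and Iglc3 are identical at 301 (96.5%), with a longest shared run of 79 bases.

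Iglc3 (chr16:19065230-19065681) was the light chain gene called higher, although it is the near copy of Iglc2. It stood at 0.298, 0.127, 0.369, 0.338 and 0.996 CPM in controls and 12.9, 0.608, 1.19, 1.39 and 0.958 CPM in knockouts, where control 5 lay above knockouts 2 and 5. The log2 fold change was 2.98 (edgeR adjusted p = 0.0454) and 1.25 without knockout 1 (edgeR adjusted p = 0.0764). Iglc2 (chr16:19198396-19200351) had values of 1.15 and -0.45 (edgeR adjusted p = 0.316 and 0.479), and Iglc1 (chr16:19061618-19062071) had values of 1.14 and -0.42 (edgeR adjusted p = 0.351 and 0.623). Another gene covers 20.6% of the exonic bases of Iglc3.

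Ighm, the constant region of the mu heavy chain, stood apart from the other members by its level. Scaled for exon length (RPKM), its control median was 404 RPKM, against 39.0 for Igkc, 2.81 for Jchain and 2.22 for Cd79b, and in knockout 1 it was 669 RPKM against 332, 18.9 and 59.4. Its levels were 762, 670, 776, 754 and 980 CPM in the controls and 1260, 1060, 1050, 809 and 954 CPM in the knockouts. Control 5 lay above knockouts 4 and 5, and the other 4 controls lay below every knockout. The ratio of knockout 1 to the median of the other 9 libraries was 1.56 for Ighm and 16.4 for Ighd. Between the groups Ighm differed by a log2 fold change of 0.38 (SE 0.12, edgeR adjusted p = 0.0555), and 0.30 without knockout 1 (SE 0.11, edgeR adjusted p = 0.0824).

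Tnfrsf13b, which encodes the receptor TACI of memory, marginal zone and B-1 cells, was the memory-associated member and did not pass. It stood at 4.88, 5.41, 5.04, 4.33 and 6.45 CPM in controls and 19.9, 5.65, 5.54, 6.64 and 6.71 CPM in knockouts. Control 5 lay above knockouts 2 and 3, and the other 4 controls lay below all 5 knockouts. The log2 fold change was 0.77 (SE 0.33, edgeR adjusted p = 0.132) and 0.24 without knockout 1 (SE 0.14, edgeR adjusted p = 0.251). Its control mean was 5.22 CPM, beside 0.462 for Tnfrsf13c, 1.12 for Cd79a and 7.78 for Bank1. Which cells the Tnfrsf13b transcripts came from was not tested. The fold change of this 1 gene therefore does not show that memory cells differed less than naive cells. From a further list of 5 memory genes 4 were tested and 0 passed in either direction, with a median of 0.28 and of 0.24 without knockout 1, and 1 of the 4 had an unadjusted edgeR p below 0.05 with all libraries, beside 31% of all genes. Among them Cd27, a receptor of memory B cells and T cells, had values of 1.36 and 0.53 (edgeR adjusted p = 0.0924 and 0.224), and Cd80 had values of 0.04 and -0.20.

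Jchain (chr5:88519809-88527891), which links IgM and IgA into polymers, is the plasma cell member that could be tested. It stood at 6.84, 5.28, 7.07, 13.6 and 25.4 CPM in controls and 47.5, 10.8, 11.4, 8.03 and 6.91 CPM in knockouts. Controls 4 and 5 exceeded knockouts 2 to 5. For Jchain the log2 fold change was 0.55 (SE 0.55, edgeR adjusted p = 0.531) and -0.32 without knockout 1 (SE 0.39, edgeR adjusted p = 0.60). Mzb1, a chaperone of marginal zone and plasma cells, had 1, 2, 9, 4 and 7 counts in controls and 154, 1, 4, 17 and 13 counts in knockouts, and another gene covers 57.2% of its exonic bases.

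A longer list of plasma cell genes was read beside Jchain. Of 12 tested, 1 (Ell2, an elongation factor that many cells express) was higher and 0 were lower, beside 5.84% and 7.05% of all genes. The median log2 fold change was 0.04, and -0.02 without knockout 1. Control means were 191 CPM for Xbp1, 31.2 for Sdc1 and 19.8 for Irf4, against 1.26 for Tnfrsf17, 1.12 for Derl3 and 1.12 for Cd79a. Which cells the abundant transcripts came from was not tested, so the median says little about plasma cells. Tnfrsf17, the plasma cell receptor BCMA, lay at 1.01 to 1.55 CPM in the controls and at 1.13 to 1.44 CPM in the knockouts, knockout 1 included. Prdm1, the factor that drives plasma cell differentiation, had a log2 fold change of -0.04 (edgeR adjusted p = 0.925), and Xbp1, a factor of secretory cells, one of -0.10 (edgeR adjusted p = 0.377).

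Class-switched heavy chains had low counts in most libraries. Of 6 constant regions 4 were tested, 0 passed in either direction, and the median log2 fold change was 1.58 and 0.17 without knockout 1. Ighg2c had 2, 5, 30, 8 and 50 counts in controls and 764, 7, 28, 32 and 16 counts in knockouts. Igha, the chain of mucosal IgA, had 8, 46, 27, 30 and 84 counts in controls and 47, 13, 36, 32 and 15 counts in knockouts, with control 5 above every knockout. Ighe had at most 2 counts. At an unadjusted edgeR p below 0.05 there was 1 of the 4 with all libraries and 0 without knockout 1, beside the 31% and 32.5% of all genes.

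Ratios between members within a library do not depend on how libraries were scaled. The level of Ighm was given above, and the few Ighv counts beside it are described further on. Whether all Ighm counts come from B cell heavy chain transcripts was not tested. The ratio of Ighd to Ighm is uncertain to that extent. The proportion of delta to mu heavy chain counts was 0.00438, 0.00342, 0.00895, 0.00556 and 0.00317 in controls and 0.0624, 0.00587, 0.00458, 0.0157 and 0.00918 in knockouts. Only control 3 and control 4 overlapped with the knockouts. On the log2 scale the knockouts were higher by 1.34 (two-sided exact permutation test over 252 choices of libraries, p = 0.0714, adjusted over 3 ratios 0.107), and by 0.74 without knockout 1 (exact permutation p = 0.143, adjusted 0.262).

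The ratio of Jchain to Cd79a sets a plasma cell transcript against a gene shared by most B cells. It was 5.75, 6.92, 3.29, 12.6 and 62.0 in controls and 1.52, 6.59, 6.41, 2.63 and 2.73 in knockouts. Control 5 lay far above the rest, since it had the second highest Jchain level and the lowest Cd79a level of all libraries. The log2 difference was -1.56 (exact permutation p = 0.0714, adjusted 0.107), and -1.27 without knockout 1 (exact permutation p = 0.175, adjusted 0.262). The ratio of Igkc to the 3 lambda genes together was 12.0, 2.74, 2.19, 6.70 and 7.52 in controls and 3.50, 5.65, 10.3, 3.26 and 6.22 in knockouts, with a log2 difference of 0.04 (exact permutation p = 0.937). None of the 3 ratios passed, and the smallest p that the test can give is 0.0079.

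**Figure D4:**
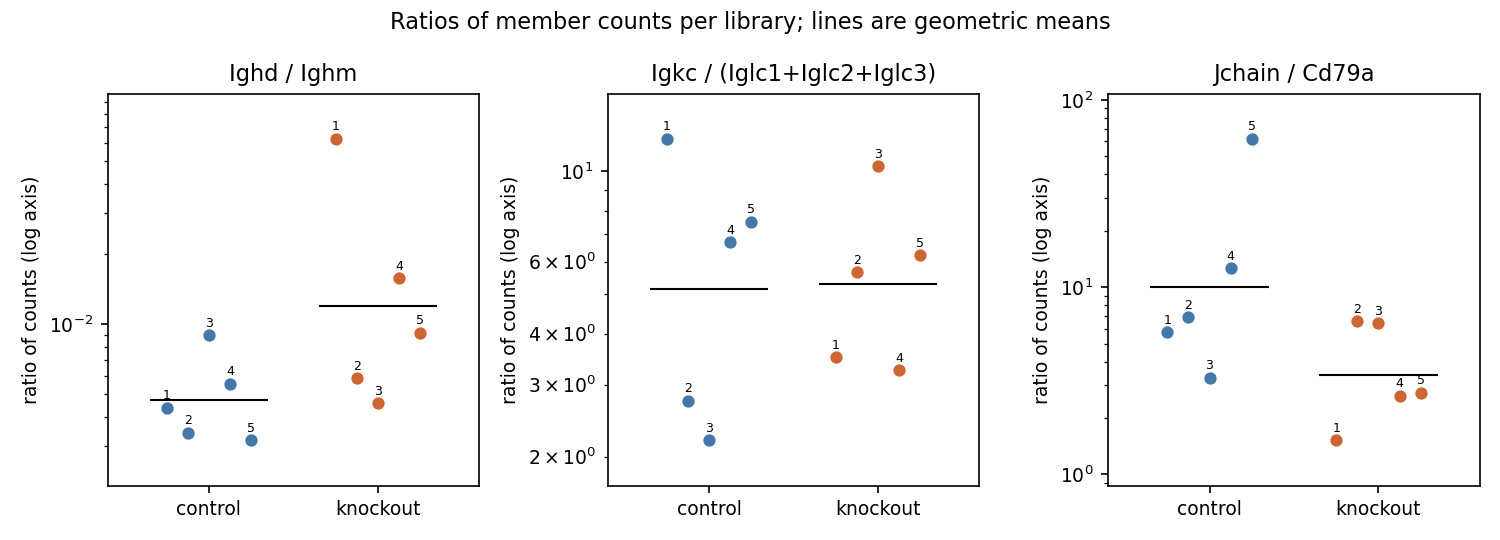
Ratio of counts within each library on a log axis for Ighd over Ighm, Igkc over the summed lambda genes, and Jchain over Cd79a, with numbered libraries and lines at the geometric mean of each group. For Jchain over Cd79a, control 5 is the highest point at 62.0 and knockout 1 the lowest at 1.52.

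Each B cell clone uses a single variable (V) segment for each of its chains. Counts summed over 348 immunoglobulin V segments were 461, 302, 388, 628 and 1332 in the controls and 4797, 596, 563, 695 and 520 in the knockouts. Segments with at least 3 counts numbered 31, 26, 32, 34 and 86 in controls and 154, 36, 55, 62 and 56 in knockouts. The 3 most counted segments made up 18.7% (control 5) to 54.9% (control 1) of the V counts in the controls and 16.1% (knockout 1) to 39.6% (knockout 2) in the knockouts. Control 5 and knockout 1 had the highest totals and the most segments in their groups, and no test was made, since both measures depend on the summed count.

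Ighv11-2 and Igkv14-126, named after their values were seen, led their classes in many libraries. Together they encode the well-known antibody of B-1 cells against phosphatidylcholine. Ighv11-2 (chr12:114048241-114048812) was the most counted heavy chain segment in 4 of 10 libraries, with 66, 18, 27, 46 and 69 counts in controls and 72, 48, 36, 16 and 19 counts in knockouts. Igkv14-126 (chr6:67896172-67896642) was the most counted kappa segment in 8 of 10 libraries, with 152, 34, 62, 118 and 92 counts in controls and 123, 127, 56, 32 and 57 counts in knockouts. Ighv11-2 made up 12.5% to 36.7% of heavy chain V counts in controls and 3.67%, 20.4%, 14%, 5.76% and 9.27% in knockout 1 to 5. Igkv14-126 made up 13.4% to 57.6% of kappa V counts in controls and 5.07%, 39.0%, 20.3%, 8.89% and 21.1% in the knockouts. Both shares lay below the control range in knockouts 1 and 4, and that of Ighv11-2 also in knockout 5. Their log2 fold changes were -0.23 and -0.20 (edgeR adjusted p = 0.736 and 0.756). The kappa segment Igkv5-39 led in knockout 1 with 413 counts and in knockout 4 with 94.

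The number of V counts per constant region count differed between heavy and light chains. Per 100 Ighm counts there were 1.07 to 3.31 Ighv counts in controls, 8.93 in knockout 1 and 1.35 to 2.28 in knockouts 2 to 5. Per 100 Igkc counts there were 64.9 to 78.2 Igkv counts in controls, 78.9 in knockout 1 and 58.2 to 103 in the other knockouts. The heavy chain figure was below the kappa figure in all 10 libraries.

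Other lists of B cell genes were read in the same fit. From 19 further genes of the B cell receptor pathway 1 was higher and 0 were lower, beside 5.84% and 7.05% of all genes. The median was 0.38. The higher gene was Lyn, a Src family kinase of B and myeloid cells (log2 fold change 0.19, edgeR adjusted p = 0.0414). Without knockout 1, 0 of the 19 were higher and 1 was lower, beside 6.97% and 7.15% of all genes, and the median was 0.15. Lyn then had a log2 fold change of 0.17 (edgeR adjusted p = 0.0538). Btk and Plcg2, the kinase and phospholipase downstream of the receptor, had log2 fold changes of 0.49 for Btk and 0.51 for Plcg2 with all libraries (edgeR adjusted p = 0.072 and 0.0683).

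Of 5 tested germinal centre genes 0 passed in either direction (1 at an unadjusted edgeR p below 0.05, beside 31% of all genes). Of 7 precursor B cell genes 6 had too few counts to be tested. Rag2 and Igll1 had at most 1 count in any library, Vpreb2 was at 0 throughout, and the 1 tested gene of that list, Cd93, which endothelial cells express, fell by 0.35 on the log2 scale (edgeR adjusted p = 0.0239). Among 5 B-1 cell genes 1 was higher, beside 5.84% of all genes. It was Ctla4, which T cells also express, with a log2 fold change of 1.5 (edgeR adjusted p = 0.046). Without knockout 1 it was 1.1 (edgeR adjusted p = 0.0816), and 0 of the 5 were called higher (2 at an unadjusted edgeR p below 0.05, beside 32.5% of all genes).

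A further list held ligands and receptors for the guidance and survival of lymphocytes. Of 12 tested, 4 were higher (among them Ltb, Ccr7 and Cxcr5) and 0 were lower, beside 5.84% and 7.05% of all genes. The median log2 fold change was 0.07. Ltb, the lymphotoxin beta of B and T cells, had values of 2.59 and 1.26 (edgeR adjusted p = 0.03 and 0.013), and the homing receptor Ccr7 had values of 1.67 and 0.82 (edgeR adjusted p = 0.0435 and 0.0311). Cxcr5, the receptor that leads B cells into follicles, had values of 2.86 and 1.14 (edgeR adjusted p = 0.0485 and 0.103). The BAFF ligand Tnfsf13b had a log2 fold change of -0.07 (edgeR adjusted p = 0.726), and Cxcl12 one of -0.17 (edgeR adjusted p = 0.239).

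Markers of other cell types moved with the B cell genes to different degrees. The summed level of 18 T cell genes was 32.9 to 56.8 CPM in controls, 264 CPM in knockout 1 and 40.7 to 80.5 CPM in knockouts 2 to 5. Of the 18, 9 were higher with all libraries and 7 without knockout 1, beside 5.84% and 6.97% of all genes. Their median log2 fold changes were 1.63 and 0.86. Cd3g, a subunit of the T cell receptor complex, ran from 1.17 to 3.16 CPM in controls and stood at 20.3, 2.37, 5.41, 5.38 and 4.72 CPM in knockouts, with log2 fold changes of 2.01 and 1.23 (edgeR adjusted p = 0.0265 and 0.0216).

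Glycam1, a mucin of the high endothelial venules through which lymphocytes enter lymph nodes, had 0, 2, 0, 1 and 3 counts in controls and 138, 6, 0, 13 and 9 counts in knockouts. Chst4, the sulfotransferase of the same vessels, had 14 counts in knockout 1 and at most 2 elsewhere. Cxcl13, the chemokine of B cell follicles, named after its values were seen, stood at 23.2 CPM in knockout 1 and 20.9 CPM in control 5, and ran from 2.40 to 7.07 CPM in the other 8 libraries. Ccl19 and Ccl21a were at 0 counts in every library, and each has a further annotated copy. Madcam1, an adhesion molecule on the same list, had 6, 1, 10, 2 and 4 counts in controls and 13, 3, 0, 5 and 7 counts in knockouts. Of 5 tested genes of lymph node stroma and venules 0 passed in either direction, and 0 had an unadjusted edgeR p below 0.05. Glycam1, Chst4, Madcam1, Ccl19 and Ccl21a had too few counts to be tested, so that result does not cover them. The part of lymph node tissue or of T cells in the differences of the B cell genes was not tested.

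Of 10 macrophage genes 0 passed in either direction, also at an unadjusted edgeR p below 0.05, with a median log2 fold change of -0.06, and their summed level lay at 2220 to 2800 CPM in the controls and at 2270 to 2600 CPM in the knockouts. Among 5 tested genes of plasmacytoid dendritic cells, which share Spib with B cells, 0 were higher and 1 was lower, Tcf4, which many cells express. Siglech, a defining gene of those cells, had 87 counts in knockout 1 and 23 to 37 in the others.

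**Figure D5:**
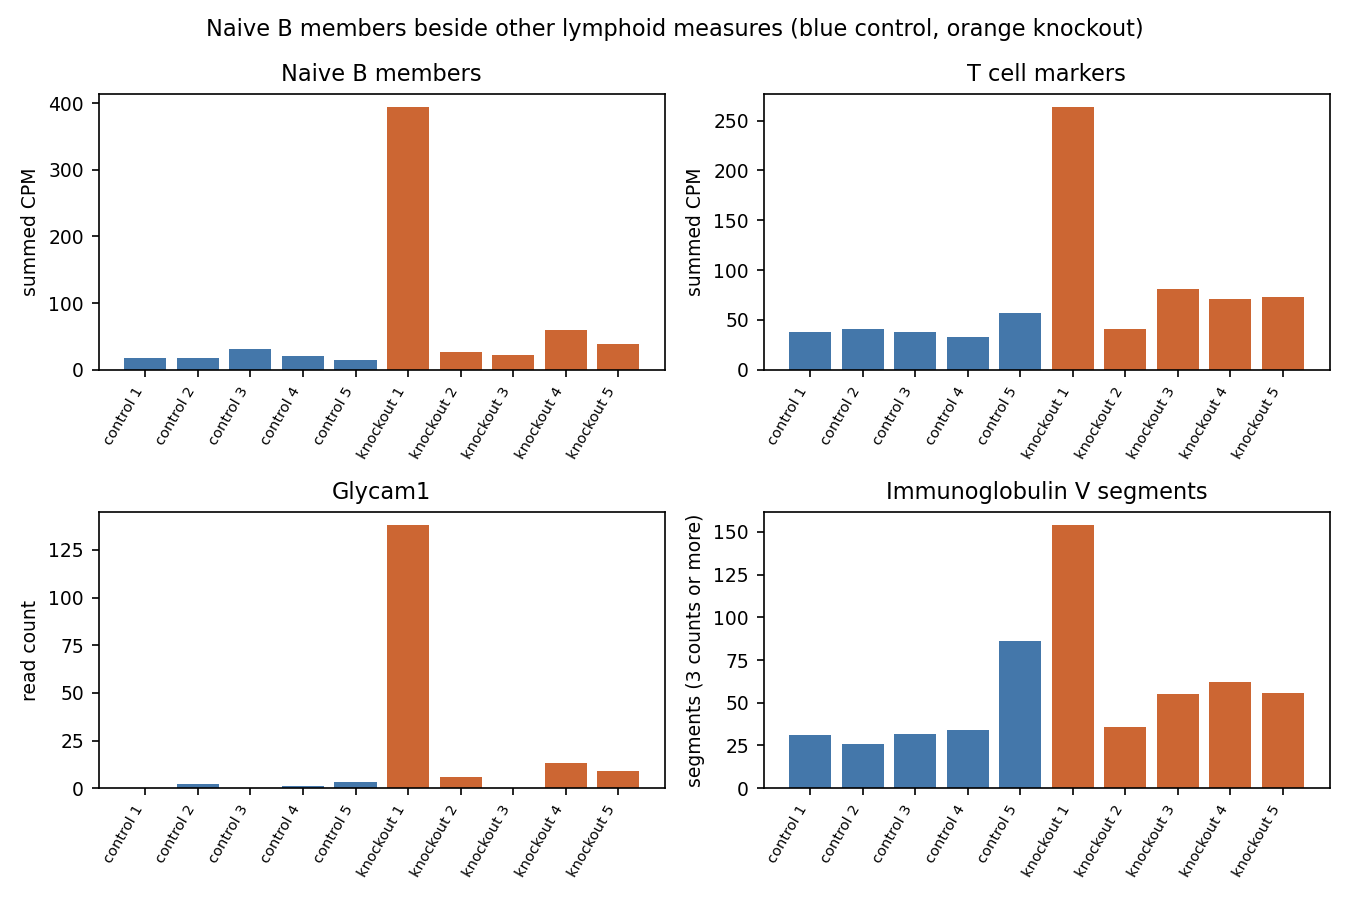
Bars for each library show the summed CPM of the 8 naive B cell genes, the summed CPM of 18 T cell genes, the counts of Glycam1, and the number of V segments with 3 or more counts, on axes that start at 0. Knockout 1 is the highest in all 4 panels, at 395 CPM for the naive B cell genes, 264 CPM for the T cell genes, 138 counts for Glycam1 and 154 segments.

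The number of called members depended on which libraries and model were used. Leaving out control 1, control 2 or control 4 left 0 of 30 members called, when 1.43%, 1.41% and 2.41% of all genes were higher. Leaving out knockout 5 left 1 (Ms4a1), beside 2.41%. Without control 3 there were 5, beside 4.54%, and without control 5 there were 6, beside 8.57%. Without knockout 2, 3 or 4 there were 14, 17 and 11, when 998, 1482 and 1680 genes were called in either direction. With DESeq2 size factors in edgeR there were 13. Without control 1, 2 or 4 the log2 fold change of Ms4a1 was 3.47, 3.45 and 3.43, beside 3.56 with all libraries. That of Cd79b was 2.58, 2.62 and 2.69, beside 2.72. Why calls were lost in these fits was not tested. A fit with no filter on low counts called 25 of 32, beside 3.27% of all genes. DESeq2 called 9 of the 20 members for which it gave an adjusted p, beside 7.8%. It gave none for the other 12, among them Ms4a1 and Cd79b. The limma-voom fit with quality weights called 2 (Ighm and Iglc3), beside 10.7%. Without both knockout 1 and control 5 there were 3 (Ighm, Cd79b and Treml2), beside 11.1%. The share of counts from loci annotated as sense intronic or TEC (a class of unverified transcripts) was 0.158% to 0.306% for the controls and 0.125% to 0.179% for the knockouts (exact permutation p = 0.024). With that share as a covariate 0 of 30 members were called (edgeR adjusted p = 0.23 to 0.903), beside 0.113% of all genes called higher. The members' median log2 fold change was 3.01, against 2.41 without the covariate, it was larger for 27 of 30, and the median standard error went from 0.77 to 1.1.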

How the data were processed

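Libraries were made from total RNA of inguinal white adipose tissue with a stranded kit after ribosomal RNA removal, per the labels' protocols. The authors deposited whole-number counts per gene for all 10 libraries, not normalized. The submitters' processing notes name the aligner STAR 2.5.2b, the counter featureCounts 1.5.1, the test package DESeq2 1.16.0 and the build GRCm38. The annotation release, strand setting and treatment of multiply matching reads, not given in the sources used here, could have let overlapping or near-identical genes share reads. Libraries were grouped by the genotype label, and replicate numbers follow record order. The 20 pairs of libraries within a group differed by more than counting noise (chi-square per degree of freedom 6.57 to 26.2), so none was treated as a repeat of another. This does not show that they came from separate mice.

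Of 52636 identifiers 52489 had a symbol in GENCODE M21. Counts were filtered with filterByExpr, scaled with TMM factors and tested two-sided in edgeR 4.0.16 (quasi-likelihood, R 4.3.3), with Benjamini-Hochberg adjustment over all tested genes and no covariate. Values per library are TMM-scaled CPM, and RPKM uses merged exon length. Ratios of members were compared with exact permutation tests on log2 values. Alternatives were DESeq2 size factors, no filter, DESeq2 1.42.0, limma-voom (limma 3.58.1) with quality weights, a covariate, and each library left out. The text names all 32 members, Tcf7l2, and from each further list up to 4 called genes and up to 6 defining genes in list order. The members and lists were chosen with earlier results of these data known. The procedure was tested on simulated counts. Single-gene results of some listed genes are not reported here.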

Additional observations from a re-analysis of the deposited data

Results flagged for a closer look

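In groups of 5 libraries, the gap between an extreme library and its neighbour was divided by the group's range and held against Dixon's critical value of 0.71. Of 72 groups examined (32 members, Tcf7l2 and 3 ratios, in controls and in knockouts), 35 exceeded it. Chance alone gives about 1 in 20 independent groups, but these genes vary together and knockout 1 had been singled out from the same values, so the number is a description and no test. For 29 members the library that stood apart was knockout 1, the highest of the knockouts.

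Among naive B cell genes the gap of knockout 1 was 0.893 for Ighd, 0.919 for Fcer2a, 0.912 for Cr2, 0.826 for Bach2, 0.898 for Fcmr, 0.861 for Btla, 0.917 for Ms4a1 and 0.937 for Tnfrsf13c. Among surface and signalling genes it was 0.952 for Cd79a, 0.92 for Cd79b, 0.889 for Cd22, 0.863 for Cd37, 0.882 for Blk, 0.907 for Bank1, 0.924 for Fcrla, 0.943 for Fcrl1, 0.889 for Treml2, 0.90 for Ly6d and 0.886 for Vpreb3. It was 0.883 for Pax5, 0.92 for Spib and 0.893 for Pou2af1. For the antibody and late-stage genes it was 0.926 for Igkc, 0.876 for Iglc1, 0.903 for Iglc2, 0.936 for Iglc3, 0.919 for Tnfrsf13b, 0.889 for Jchain and 0.879 for Mzb1.

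Control 3 stood above the other controls for Fcer2a (0.818), Fcmr (0.814), Ms4a1 (0.88), Pax5 (0.843) and Spib (0.766). Control 5 did so for Iglc3 (0.722).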

How the results depend on the processing

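The count of members called higher was 13, and it was 25 with no filter on low counts (32 tested), 2 with limma-voom and quality weights, 0 with the intronic-type share as a covariate (where the folds of 27 of 30 were larger, with wider errors), and 3 without knockout 1 and control 5 together, a setting chosen after seeing the data. With DESeq2 it was 9, with 20 of 32 adjusted p-values given. Leaving out 1 library at a time it ran from 0 to 17, and no setting called a member lower. Genes called in either direction numbered 2053, and 3605 with limma-voom, 67 with the covariate, 3774 without knockout 1 and control 5, and 537 to 3094 with 1 library left out. Log2 fold changes of Igkc, Iglc1, Iglc2 and Jchain were below 0 without knockout 1. Below 0 were also, without knockout 1 and control 5, Iglc1 at -0.39 and Iglc2 at -0.084, and with limma-voom, Iglc2 at -0.016. The log2 difference of the Igkc to lambda ratio ran from -0.272 to 0.342 with 1 library left out, those of Ighd to Ighm from 0.74 to 1.682 and of Jchain to Cd79a from -1.96 to -0.901. With 1 library left out Igkc ran from -0.162 to 1.494, Iglc1 from -0.416 to 1.507, Iglc2 from -0.45 to 1.524 and Jchain from -0.32 to 1.064. Tcf7l2 stayed lower under every setting run. The cause of these shifts was not tested. No paired analysis was possible because replicate numbers only follow the order of the records. Glycam1, under the floor of 3 counts in 5 of 10 libraries, is limited by depth.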
